A study of Mus musculus with 4 samples.

Results

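The long densely tiled regions are autosomal stretches that a mouse DNA methylation array covers with many probes in a row. All autosomal probes with a genome position (167117 of the 174638 on the array) were joined wherever the gap between neighbours was at most 1000 bp, and a region was kept when it held at least 20 probes and spanned at least 3000 bp. This left 36 of 21138 autosomal regions, with 1711 probes on 15 of the 19 autosomes. The choice used probe positions alone and no measured signal. Regions are numbered from 1, the longest, to 36, the shortest, and all positions are mm9, the build named in the file headers.

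Methylated DNA was enriched with an antibody against 5-methylcytosine and hybridized beside unenriched DNA on a tiling array, an assay called MeDIP-chip. The cells were 3T3-L1, mouse embryo fibroblasts committed to the fat lineage that become adipocytes when a hormone cocktail is added. Control cells were wild type, and shRNA8 cells carried by stable transfection a short hairpin RNA against the long non-coding RNA slincRAD. The sampling times were day -2, with cells not yet induced, and day +2, with cells in medium that held 167 nM insulin, 1 µM dexamethasone and 0.5 mM 3-isobutyl-1-methylxanthine. There was 1 array for each line and day, 4 in all, with 1 µg of DNA labelled for the antibody-bound fraction (IP, Cy5) and for the input (Cy3). The labels do not say whether shRNA8 cells are 1 clone or a pool, and the control line carried no stated hairpin. For the shRNA8 day +2 input, the label names that day yet speaks of cells before induction, and the day was followed.

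Most CpG sites in mammalian DNA are methylated, while CpG islands, stretches dense in CpG that often cover promoters, are usually free of methylation. Some islands are long and merge into domains around genes that control development, and such domains are often held by Polycomb complexes. The antibody binds single-stranded DNA with methylated cytosines, so its yield depends on how many CpG sites a fragment holds as well as on how many of them are methylated. A ratio of IP to input is therefore a relative measure and not a methylation percentage.

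With 1 array per group there is no spread between replicates. The differences below were not tested, and the precision is set by the number of arrays. An SD over probes is the spread within a region on 1 array or pair of arrays, and an SD over arrays is the spread over the 4 groups. In every list of 4 values the order is control day -2, control day +2, shRNA8 day -2 and shRNA8 day +2. All arrays lay on 1 slide, with shRNA8 cells in 2 neighbouring positions and control cells in the other two, so line and slide position cannot be told apart. The 810 negative control spots of each array had a median log2 IP of 3.66 to 3.89, a median log2 input of 5.88 to 6.11 and a median log2 ratio of -2.34 to -1.98.

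The regions were set apart by length and not by closer spacing. They held 20 to 318 probes (median 23) and spanned 4045 to 75782 bp (median 5532 bp), against a median of 8 probes and 1646 bp in the 20986 other autosomal regions of at least 3 probes. Neighbouring probes started a median of 210 bp apart in long regions and 209 bp apart in the others. The size limits cut through a continuous range. The 12 members with 20 or 21 probes had median ratios of 0.41, 0.44, 0.44 and 0.36, and the 31 regions just outside, with 18 or 19 probes and at least 3000 bp, had 0.40, 0.34, 0.34 and 0.21. Another 421 regions reached 3000 bp with fewer than 20 probes, and no region had 20 probes within less than 3000 bp.

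The members fell into a pair of size classes with none between. The 10 longest held 46 to 318 probes, 1128 in all, and the other 26 held 20 to 29 probes. Whether the regions are rich in CpG could not be read from the files, which give positions and signals but no probe sequences. The one property of the sequence on hand is probe length, which ran from 45 to 60 bp. Of all member probes 49.9% were 45 bp long, against 50.4% in other regions. The 10 longest regions had 39.2% of 45 bp probes and the other 26 had 70.7%, with 45 bp probes in the majority in 2 of 10 and 24 of 26 regions. Whether the regions hold developmental genes was not analysed here, since no gene annotation of mm9 was used, and regions are named by position.

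Several members lie side by side. On chromosome 13 regions 9, 13, 6 and 7, with 222 probes together, lie within the 97.7 kb of chr13:23741257-23838932. Regions 8 and 5 share chr3:96020633-96068330, regions 11 and 22 share chr4:88432584-88446625, and regions 15 and 34 share chr15:76025643-76040743. Such neighbours share their surroundings and may not count as independent members.

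The long regions were, as a set, slightly richer in IP over input than other regions, and this depended on size class and probe length. Their median log2 ratio was 0.22, 0.31, 0.27 and 0.27, against 0.13, 0.14, 0.13 and 0.11 in other regions and 0.22, 0.22, 0.21 and 0.21 in the 1886 regions of 10 to 19 probes. The excess over other regions was held by the shorter members. The 26 regions under 30 probes had medians of 0.31, 0.47, 0.34 and 0.34, and the 10 longest had -0.0048, -0.12, -0.031 and -0.047. When the median of all autosomal probes of the same length was subtracted, the long regions stood at 0.02, 0.06, 0 and 0.03 and other regions within 0.0051 of 0. Across the 36 regions the mean ratio fell with mean probe length (Pearson's r = -0.66, Spearman's rho = -0.55). In the length-subtracted ratio r was 0.07 and rho was 0.16, but the subtraction is built to take such a relation out. Probe length is often set by base composition, and the part of either in these levels was not tested.

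By the median over regions, both channels were brighter in the long regions as a set, but not in the 10 longest. The median log2 IP signal was 8.59, 8.67, 8.78 and 8.77, against 8.08, 8.09, 8.20 and 8.24 in other regions. The median log2 input signal was 7.86, 7.72, 8.25 and 8.22, against 7.35, 7.34, 7.54 and 7.67. The excess was thus 0.55 in IP and 0.54 in input as a mean over the arrays, and it turned to -0.08 and -0.05 when the signal of probes of the same length was subtracted. The channels rose together from region to region (r = 0.93 over 36 regions), and IP fell with mean probe length (r = -0.85) as did input (r = -0.77). Regions of 10 to 19 probes lay between long and other regions. Their IP was 8.33, 8.32, 8.46 and 8.50 and their input 7.56, 7.54, 7.76 and 7.83. The size classes split here as well, and the 10 longest were dimmer than other regions in both channels. IP stood at 7.13 to 7.20 in the 10 longest and at 8.90 to 9.04 in the other 26, and input at 6.64 to 6.69 and at 8.16 to 8.36.

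**Figure D1:**
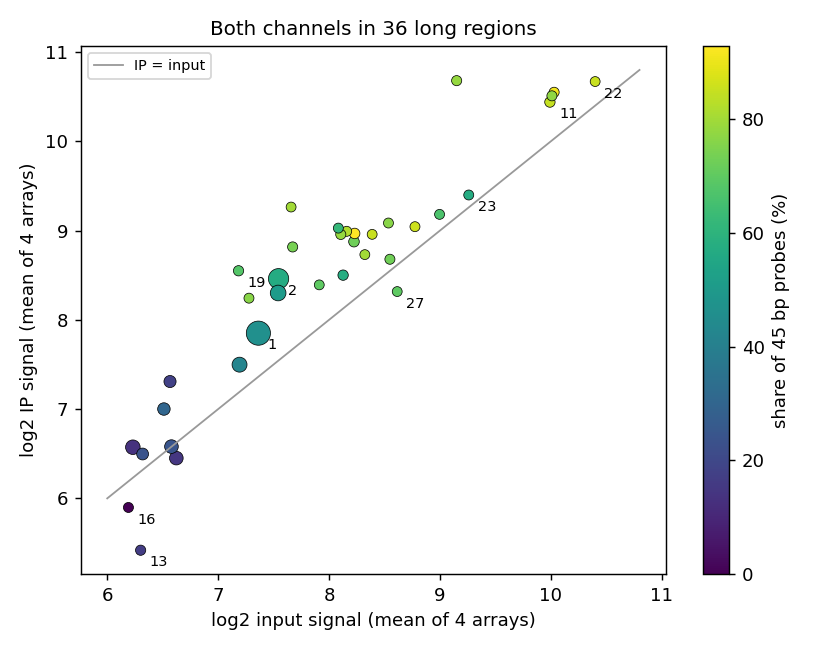
Median log2 IP signal against median log2 input signal of each of the 36 long regions, each a mean of the 4 arrays. Point size grows with the number of probes and colour gives the share of 45 bp probes. Most regions lie above the line of equal signal, the dark points at the lower left are regions with few 45 bp probes, and regions 6, 13, 16 and 27 lie below the line.

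The order of the regions was largely shared by the 4 arrays. The ratio was above 0 in all arrays in 25 regions, below 0 in all arrays in 9, and of mixed sign in 2. The SD over regions of the mean ratio was 0.48, against a median SD over arrays of 0.15 and a largest one of 0.34. Pearson's r between any 2 arrays was 0.87 to 0.92 over the 36 regions. Over the member probes it was 0.92 to 0.94 for the ratio, 0.998 to 0.999 for IP and 0.95 to 0.96 for input. The arrays share their probes as well as the parent cell line. Long regions varied less among themselves than others did, with an SD over regions of 0.45 to 0.55 against 0.88 to 0.96, and a median over more probes varies less.

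**Figure D2:**
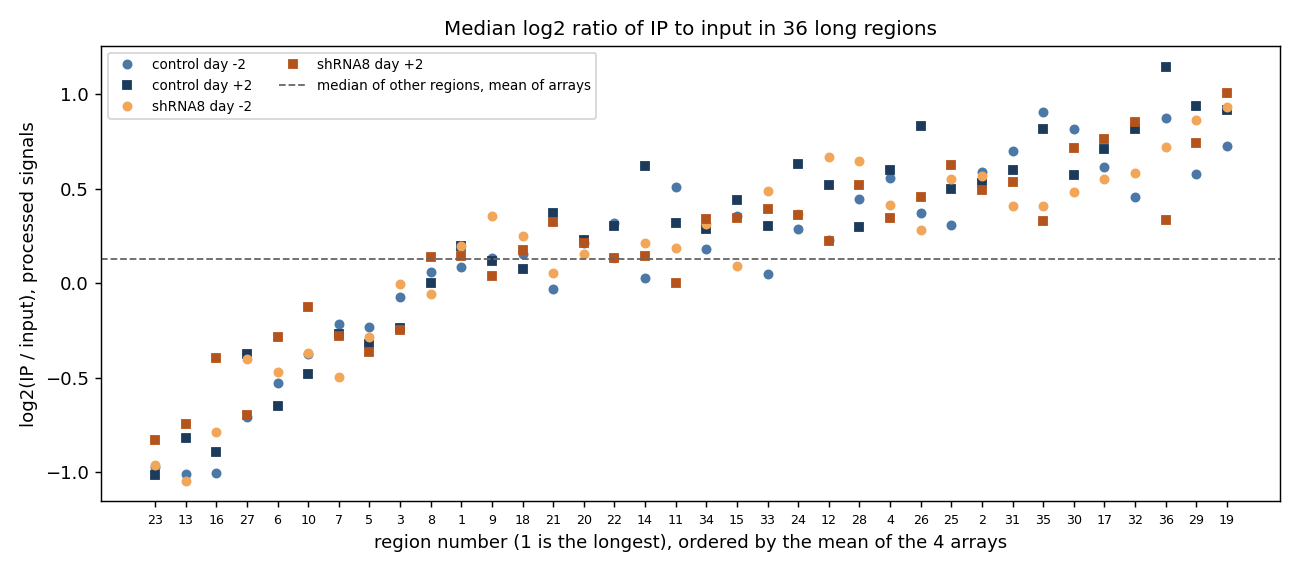
Median log2 ratio of IP to input of the 36 long regions, ordered by their mean over the arrays, with 1 point for each array. Regions 23, 13 and 16 lie lowest, at means of -0.94, -0.91 and -0.77, and region 19 lies highest at 0.89. The dashed line is the median of other autosomal regions.

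Region 19 (chr17:71198643-71204069, 25 probes) had the highest ratio, with 0.73, 0.91, 0.93 and 1.00. It ranked first after subtraction of probe length too, at 0.48, but only 13 of its 25 probes were above background in all inputs. The mean normalized ratio of those 13, as used in the comparisons below, was -0.05, 0.11, 0.06 and -0.01. By that measure regions 29, 32 and 4 stood higher in every array. Region 29 was at 0.40, 0.35, 0.46 and 0.34, region 32 at 0.29, 0.36, 0.36 and 0.40, and region 4 at 0.19, 0.31, 0.12 and 0.07. Regions 36 and 17 were near 0 by it, at -0.12 to 0.06 and -0.08 to 0.09. In the median over all unflagged probes, regions 29 (chr14:71026387-71031081), 36 (chr8:87603572-87607616), 32 (chr14:70603945-70608591) and 17 (chr16:20730187-20735866) followed at means of 0.78, 0.77, 0.68 and 0.66. Region 36 was the least even, with 0.87, 1.15, 0.72 and 0.34, which gave the largest SD over arrays of any member. Region 32 had a bright IP channel, with log2 values of 10.54, 10.63, 10.76 and 10.79 over an input of 9.15, 8.88, 8.76 and 9.82. The ranges of these 5 regions overlap, so their order is not settled by these arrays.

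At the low end, region 23 (chr19:53213713-53218886, 21 probes) had ratios of -0.97, -1.02, -0.96 and -0.83, and region 13 (chr13:23757067-23764050, 24 probes) had -1.01, -0.82, -1.05 and -0.75. These ranges overlap each other and lie below those of every other region but 16. Region 16 (chr6:131635264-131641111, 22 probes) had -1.003, -0.89, -0.79 and -0.40. It had no 45 bp probe, its input of 6.17, 6.04, 5.94 and 6.61 lay near that of the negative control spots, and 3 of its probes were above background in all inputs. Region 27 (chr19:4096243-4101083, 20 probes) had -0.71, -0.37, -0.40 and -0.70. Region 6 (chr13:23766152-23784309) had -0.53, -0.65, -0.47 and -0.28.

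Probe length separated these low regions. After its subtraction regions 27, 13 and 23 remained the lowest of all, at means of -0.84, -0.75 and -0.47. Regions 16 and 6 moved to 0.07 and 0.04, in the middle of the order. Region 27 reached its level with 70% of 45 bp probes and an input of 8.74, 8.56, 8.86 and 8.30, well above the negative control spots. Region 13 was dim, with an IP signal of 5.32, 5.48, 5.49 and 5.39. The mean normalized ratio of probes above background, with no length subtracted, gave another order. Regions 27 and 23 stayed low, at -1.54 to -1.35 and -1.20 to -0.98 over the arrays. Region 16 (3 such probes) was at -1.29 to -0.87, region 7 at -1.09 to -0.89 and region 6 at -0.87 to -0.61. Region 13 (10 such probes) stood higher, at -0.42 to -0.31. The brightest input belonged to region 22 (chr4:88441349-88446625), at 10.4, 9.89, 10.6 and 10.7.

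The longest member, region 1 (chr2:174100927-174176708), held 318 probes over 75782 bp and had ratios of 0.09, 0.20, 0.20 and 0.15. Region 2 (chr7:149758752-149806238, 212 probes) stood higher, with 0.59, 0.53, 0.56 and 0.49, all above the highest value of region 1. Region 4 (chr11:103557750-103586053, 111 probes) had 0.56, 0.60, 0.42 and 0.34, so that both shRNA8 arrays lay below both control arrays. Region 3 (chr4:116177063-116207684, 90 probes) had -0.07, -0.24, -0.0052 and -0.25.

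The pair on chromosome 3 did not share a level. Region 5 (chr3:96042396-96068330, 97 probes) had ratios of -0.23, -0.32, -0.28 and -0.36, and region 8 (chr3:96020633-96035155, 56 probes) had 0.06, -0.00051, -0.06 and 0.14. On chromosome 13, region 7 (chr13:23822417-23838932, 74 probes) had -0.21, -0.27, -0.50 and -0.28. Region 9, at the other end of that cluster (chr13:23741257-23755546, 50 probes), was above 0 in all arrays at 0.14, 0.12, 0.35 and 0.04. The 4 chromosome 13 members thus ranged from a mean of -0.91 in region 13 to 0.16 in region 9.

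Within a region single probes varied far more than regions did. The SD over the probes of region 1 was 1.71 to 1.75, and the median such SD over members was 1.60 to 1.73, close to the 1.53 to 1.65 of other regions. Adjacent probes were weakly alike. Over 1673 adjacent pairs in long regions, r of the length-subtracted ratio was 0.09 to 0.11 in the 4 arrays, against 0.03 to 0.04 over 143900 pairs in other regions. For the length-subtracted IP signal it was 0.050 to 0.055, against 0.010 to 0.012. Without the subtraction, r of the ratio was 0.09 to 0.12 in long regions, against 0.06 to 0.08. For IP it was then 0.18 to 0.19 in both sets, and for input it was lower in long regions, at 0.13 to 0.14 against 0.15 to 0.16.

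Running means over 7 probes showed highs and lows along the longest regions. The windows given here were picked as the highest and lowest by the mean over the 4 arrays, so their levels only describe the profile, and single arrays reached more extreme values elsewhere. In region 1 the window with the highest mean (chr2:174150667-174152051) had length-subtracted ratios of 1.79, 1.88, 1.99 and 1.76, and the one with the lowest mean (chr2:174129262-174131417) had -1.77, -1.87, -1.77 and -1.80. The low window was a mix of probes, with an SD over its 7 probes of 3.23.

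Region 2 held the deepest low of the 10 longest regions. Its window chr7:149779990-149781274 had -2.58, -2.46, -2.42 and -2.65, with input 9.10 to 9.50 above IP of 7.15 to 7.38. This low window was a mix of probes too, with an SD over its 7 probes of 2.88. The window of region 2 with the highest mean, chr7:149770803-149772102, had 1.54, 1.49, 1.54 and 1.21.

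**Figure D3:**
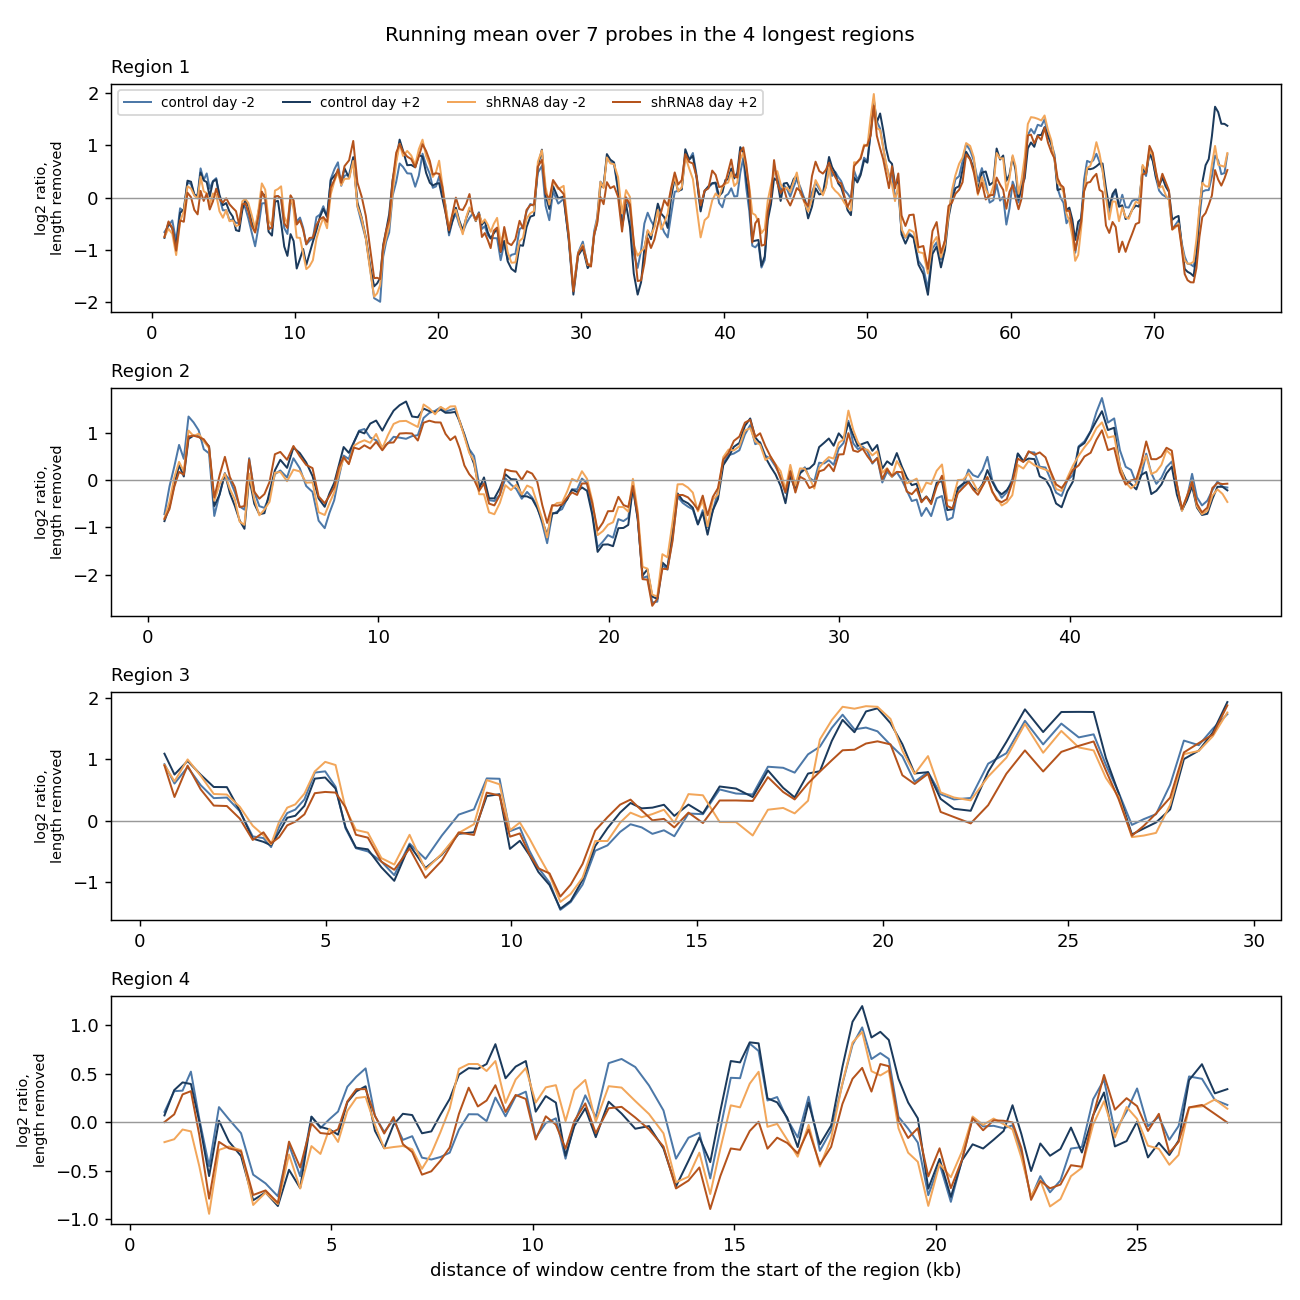
Running mean over 7 probes of the log2 ratio, after subtraction of the median of probes of the same length, along the 4 longest regions. The horizontal axis is the distance of the window centre from the start of the region in kb, and each line is 1 array. Region 2 has a low in every array, at -2.58, -2.46, -2.42 and -2.65 in the window described, while the place of the highest window differs between arrays.

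The ends of the regions did not differ in a common direction from their centres. Ends were the outer 20% of the span on each side, and the centre was the rest. The median over regions of the mean ratio at the ends less that in the centre was -0.04, -0.05, 0.01 and -0.04, and the ends were higher in 18, 18, 18 and 15 of 36 regions. Ends were higher in all 4 arrays in 14 regions, lower in all in 16 and mixed in 6. The same difference in regions of 10 to 19 probes had medians of -0.12, -0.10, -0.11 and -0.15, with ends higher in 44.4% to 46.3% of regions. The direction in long regions depended on the setting. It turned to a mean over arrays of 0.14 when probes had to be above background in all inputs, and to 0.04 after subtraction of probe length, and it was -0.25 against the middle 20% alone.

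By the median over regions, the ends were dimmer in IP. The median difference was -0.34, -0.31, -0.34 and -0.32 in IP and -0.19, -0.09, -0.08 and -0.13 in input. IP was lower at the ends in all arrays in 21 regions and higher in all in 13. Input was brighter at the ends in 14, 15, 17 and 16 of the 36 regions, and the SD over regions of its difference was 0.87 to 0.98. In regions of 10 to 19 probes the ends were dimmer by more, with medians between -0.67 and -0.71 for IP and between -0.57 and -0.61 for input. The differences between these sets were not tested.

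**Figure D4:**
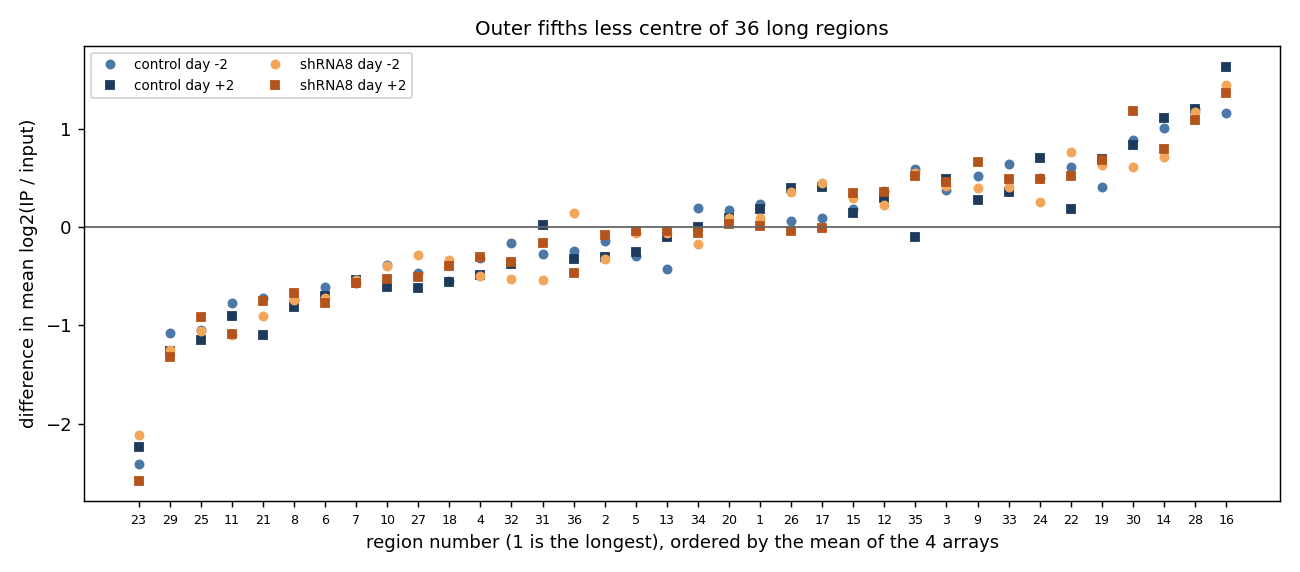
Mean log2 ratio of the outer 20% at each end less that of the centre in the 36 long regions, ordered by the mean over arrays, with 1 point for each array. The points run from region 23, near -2.3, to region 16, near 1.4, and close to equal numbers of regions lie on each side of 0.

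Single regions had steep profiles with 1 sign in all 4 arrays, although several changed in size with the setting. The SD over regions of the difference was 0.73, against a median SD over arrays of 0.14. The arrays share their probes, so the SD over arrays leaves out the spread over probes. Within members that spread had a median SD of 1.60 to 1.73. In single arrays the SD of the difference was 0.72 to 0.77 over long regions. It was 0.99 to 1.06 over the 1886 regions with fewer probes compared above. Whether the steps in single regions exceed the spread over probes was not tested. Region 23 was the steepest. Its 8 end probes had mean ratios of -2.42, -2.30, -2.17 and -2.55, and its 12 centre probes had -0.013, -0.069, -0.061 and 0.034. IP signals were 4.91, 4.78, 4.81 and 4.96 at the ends and 10.4, 10.5, 10.5 and 10.6 in the centre. Input was also dimmer at the ends, at 7.33, 7.08, 6.98 and 7.51 against 10.5, 10.5, 10.6 and 10.6 in the centre. The negative control spots had a median IP of 3.66 to 3.89. Of its end probes 12.5% were 45 bp long, against 91.7% in the centre, and after subtraction of probe length the difference was -1.20, -0.99, -0.95 and -1.50.

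Region 29 had a centre above its ends in every array, with end ratios of 0.11, 0.14, 0.15 and 0.02 and centre ratios of 1.19, 1.40, 1.39 and 1.35. Its IP was 8.51 to 8.66 at the ends and 9.50 to 9.68 in the centre, and its input was 8.39 to 8.64 and 8.10 to 8.32. Region 25 (chr11:97560211-97565133) had a step of like size, -1.05, -1.15, -1.06 and -0.91, but its IP was brighter at the ends (9.05 to 9.23) than in the centre (8.50 to 8.67) and its input more so (9.02 to 9.18 against 7.36 to 7.64). Region 11 (chr4:88432584-88439855) had -0.77, -0.90, -1.10 and -1.09, and its mean of -0.97 shrank to -0.31 with the first and last 10% as ends and to -0.19 with medians over probes.

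The opposite shape was seen in region 28 (chr17:26335541-26340322), whose ends had ratios of 0.94, 1.09, 1.11 and 0.90 over a centre of -0.26, -0.10, -0.06 and -0.19. Region 14 (chr7:52970079-52976981) differed by 1.01, 1.11, 0.71 and 0.79, and region 30 (chr5:23928909-23933598) by 0.88, 0.83, 0.60 and 1.18. Region 16 had the largest such step, 1.16, 1.63, 1.44 and 1.37, and its input in the centre was 6.42 to 6.69, close to the negative control spots. In IP alone the ends less the centre were 0.41 to 0.53 in region 28 and 0.96 to 1.03 in region 14. They were 1.40 to 1.59 in region 16 but -0.34 to -0.31 in region 30. In input they were -0.79 to -0.64 in region 28, -0.08 to 0.26 in region 14, -0.11 to 0.25 in region 16 and -1.51 to -0.93 in region 30. The steps in the ratio depended on the setting. Against the middle 20% alone region 28 went from a mean of 1.16 to 3.45, region 30 from 0.87 to 2.33 and region 14 from 0.90 to 1.49, and region 23 from -2.33 to -1.56. With medians over probes region 28 was at 0.71 and region 30 at 0.31, with arrays from -0.19 to 0.78. With probes above background in all inputs region 16 went from 1.40 to 4.73 and region 14 to 0.53.

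Of the 8 longest members, 6 had lower ends in all 4 arrays. The means were -0.21, -0.40 and -0.16 in regions 2, 4 and 5, and -0.71, -0.56 and -0.74 in regions 6, 7 and 8. After subtraction of probe length regions 2, 5 and 7 had mixed signs over the arrays, region 8 had a mean of -0.32 and region 6 one of -0.58. Region 3 had higher ends, at 0.43, and region 1 at 0.13.

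The comparisons by line and day asked whether knockdown of slincRAD or induction went with a change of IP over input in these regions. For them each array's ratios were centred on their median and then quantile normalized, so an overall difference would not be seen. Only probes whose input was above background on every array were used, 926 of the 1709 unflagged member probes, or 54.2%, against 54.7% in other regions. A region counted as changed when its mean difference reached 0.6 on the log2 scale (1.52-fold) with at least 75% of its probes that way. This is a rule of size and not a test.

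None of the 36 long regions was past that rule in any comparison. Between shRNA8 and control cells at day -2 the count was 0 of 36, against 2.43% of all 17209 autosomal regions of at least 3 usable probes and 0.647% of the 1854 such regions of 10 to 19 probes. At day +2 it was 0 of 36, against 3.34% and 0.917%. For day +2 against day -2 it was 0 of 36 in control cells, against 2.03% and 0.485%, and 0 of 36 in shRNA8 cells, against 3.07% and 0.539%. For the difference between the lines' day changes it was 0 of 36, against 5.83% and 2.70%. The count was also 0 at a size of 0.4, against 7.43% to 13.3% of all regions in the 5 comparisons, and at 0.3, against 12.7% to 19.3%.

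The number of probes has to be read beside these zeros. All but 1 of the long regions had at least 10 usable probes. Of all 280 autosomal regions with that many, 35 of them long, none was past the rule in any comparison. At day -2, for instance, the SD of the line difference was 0.29 over regions of 3 to 5 usable probes, 0.21 over those of 6 to 9, 0.16 over those of 10 to 19 and 0.12 over those of 20 or more. The zeros therefore do not set the long regions apart from other regions of 10 to 19 usable probes, a class of 269 regions with 24 long ones. All 11 regions with 20 or more usable probes were long, so these had no other regions to be compared with.

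**Figure D5:**
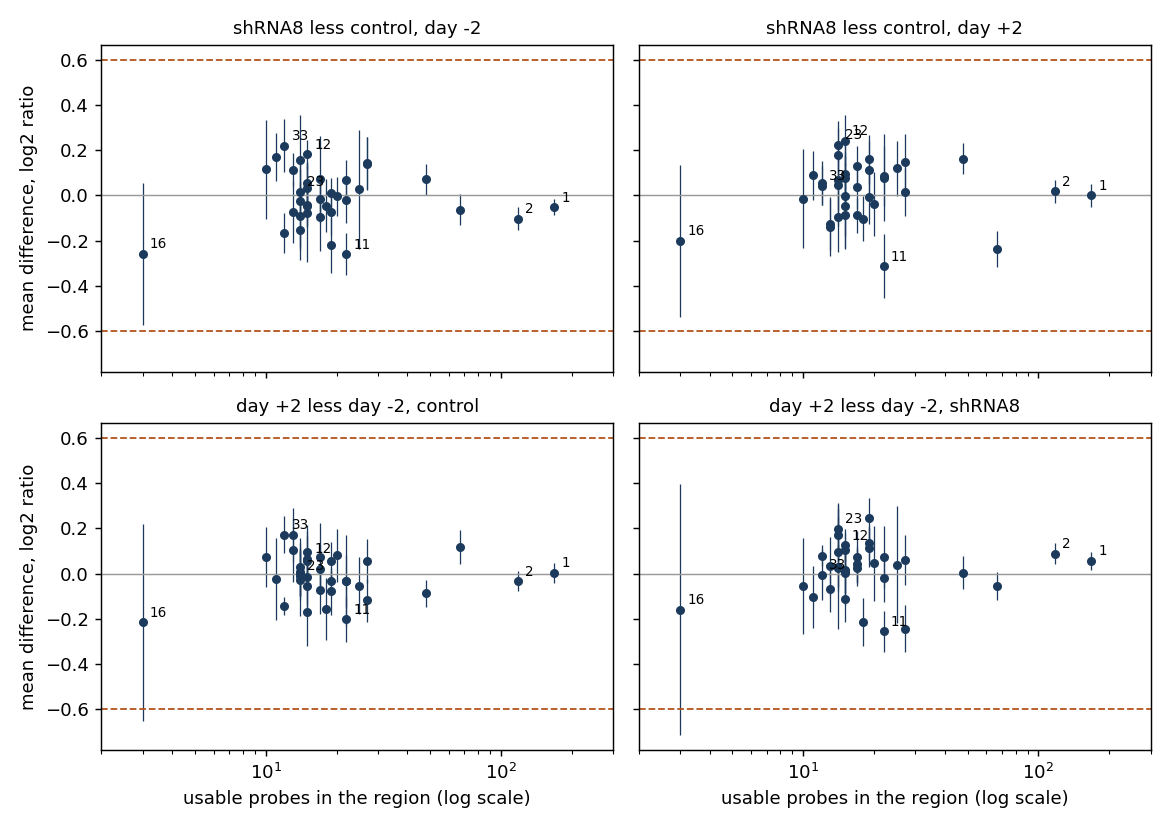
Mean difference of the normalized log2 ratio in each long region against its number of usable probes (log axis), in 4 comparisons. Bars are the standard error over the probes of a region, which share the same arrays, and dashed lines mark the size rule of 0.6. All 36 points lie between the dashed lines in every comparison.

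Between the lines at day -2 the differences (shRNA8 less control) ran from -0.26 to 0.22 with a median of -0.017, and at day +2 from -0.31 to 0.24 with a median of 0.04. The difference was above 0 in 16 of 36 regions at day -2 and in 21 at day +2. It was above 0 at both days in 12 regions, below 0 at both in 11 and of opposite sign in 13. From day -2 to day +2 the change ran from -0.22 to 0.17 in control cells (median -0.013, above 0 in 17) and from -0.26 to 0.24 in shRNA8 cells (median 0.031, above 0 in 25). In other regions 50.2% of control day changes and 53.1% of shRNA8 day changes were above 0. Differences in the long regions had an SD of 0.10 to 0.13, against 0.25 to 0.35 in other regions, which have fewer probes.

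The input channel varied more between arrays than IP. Over the long regions the SD of the IP differences was 0.02 to 0.05, against 0.10 to 0.14 for input. The input difference had the opposite sign to the ratio difference in all 20 of the values that the next paragraphs take as the 2 largest of each sign in each comparison, and with the IP channel alone 7 of the 20 changed sign. These 20 were chosen for a large ratio difference. Input is subtracted in the ratio and varied more than IP, so the count of opposite signs is not a separate observation. The part of input signal in these differences was not tested. An exception in size was region 16, with 3 usable probes. Its day change was -0.22 ± 0.75 in control cells, with -0.20 in IP and 0.05 in input, and -0.16 in shRNA8 cells, with -0.16 in IP and -0.0011 in input. Without the background filter 7 of the 20 changed sign as well.

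Region 11 was the lowest member in 3 of the 4 comparisons between single groups, and among the 2 lowest in the fourth. With 22 usable probes, shRNA8 cells were at -0.26 ± 0.44 (SD over probes) against control at day -2 and at -0.31 ± 0.66 at day +2. The day change was -0.20 ± 0.46 in control and -0.26 ± 0.42 in shRNA8 cells. In the raw ratio the 4 arrays fell in the order 0.51, 0.32, 0.18 and 0.0023. Its IP differences were 0.02, -0.00098, -0.0031 and -0.03, while its input differences were 0.29, 0.23, 0.24 and 0.19. A within-array loess on intensity took the line differences to -0.46 and -0.50 at day -2 and day +2, and the median over probes took them to -0.21 and -0.11, all under the size rule. That median also took the day change in shRNA8 cells to -0.14. The neighbouring region 22 had smaller differences of the same sign, at -0.05 and -0.10 between the lines and -0.16 and -0.21 between the days. Both are among the brightest members.

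The other named differences were 0.26 or less in size, and several depended on the background filter or on the mean over probes. Region 33 (chr11:116391930-116396413) was higher in shRNA8 cells at day -2 by 0.22 ± 0.40 and at day +2 by 0.04, and its day change in control cells was 0.17 ± 0.28. Region 12 (chr14:49282055-49289287) was higher in shRNA8 cells at both days, by 0.18 ± 0.25 with 12 of 15 probes and by 0.24 ± 0.43 with 11 of 15. Region 23 was higher in shRNA8 cells at day +2 by 0.22 ± 0.28, with 11 of 14 probes, and at -0.06 without the background filter. Region 4 was at -0.24 ± 0.65 over 67 probes at day +2, and at -0.11 with the median over probes. Region 16, with its 3 usable probes, was at -0.26 ± 0.54 at day -2, at 0.0078 without the filter and at -0.10 with the median. Without the filter region 33 was at 0.12 at day -2 and region 12 at 0.06 at day +2.

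By day, region 10 (chr2:18597348-18608594) was at 0.24 ± 0.40 in shRNA8 cells and 0.06 in control cells, and region 6 at -0.24 ± 0.55 and -0.12. Region 23 was at 0.20 ± 0.42 in shRNA8 cells and -0.0096 in control cells. Without the filter the shRNA8 values of regions 10, 6 and 23 were 0.14, 0.0078 and -0.09, and with the median over probes those of regions 10 and 23 were 0.09 and 0.014. The control day changes of regions 16 and 19 were 0.04 and 0.04 without the filter and 0.07 and 0.05 with the median. Region 19, the member with the highest median ratio over all its unflagged probes, was at 0.17 ± 0.43 in control cells and -0.07 in shRNA8 cells. This gave a difference of day changes of -0.24 ± 0.47. The largest positive differences of day changes were 0.22 ± 0.21 in region 26 (chr6:83003347-83008261), with 11 of 12 probes above 0, and 0.21 ± 0.57 in region 8. The lowest after region 19 was -0.18 ± 0.48 in region 33. Without the background filter region 26 turned to -0.09, and with IP alone it was at -0.0090. Region 8 was at 0.09 without the filter and at 0.37 with the within-array loess, and regions 19 and 33 were at -0.06 and 0.0035 without the filter and at -0.03 and -0.07 with the median over probes. Region 1, the longest, differed between the lines by -0.05 and -0.00019 and between the days by 0.0036 and 0.06, over 168 usable probes.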

How the data were processed

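The authors deposited Agilent Feature Extraction 11.0.1.1 output of 4 two-colour arrays, per the file headers. The deposited intensity columns include a background-subtracted and a dye-normalized processed signal for each channel. A deposited log10 ratio was used only as an alternative, and the deposited p-value of that ratio was left aside. Limma is named in the submitters' processing notes, with no role given.

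Levels used log2 of processed IP over processed input, after leaving out probes that any array flagged as a population outlier, non-uniform or saturated, and each region was given by the median over its probes. Ends and centre were means over probes. Comparisons used probes above background in all 4 inputs, median centring and quantile normalization. Probe length was removed by subtracting the median of autosomal probes of that length in the array.

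Named regions are the 8 longest, the 5 highest and 5 lowest in ratio, the 4 highest and 4 lowest in ends less centre, and the 2 largest differences of each sign in each comparison. Regions 9, 22 and others outside that rule, the running windows over 7 probes, the neighbouring members, the size classes and chromosome X were chosen after their values were seen. The members, rules and lists were chosen with earlier results of these data known. The gene lists were not analysed here.

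The size rule was tried on real differences shuffled among autosomal probes, with known offsets added to the long regions. Ends less centre was tried on random values with a known offset at the ends. Shuffling takes out any likeness between neighbouring probes, and how regions were joined was not tried this way. Alternatives were other filters, signals, summaries, sizes, join gaps, end widths, single channels and a limma within-array loess. Tools were R 4.3.3 with limma 3.58.1, and Python 3.11.15 with pandas 2.3.3, numpy 2.4.6, matplotlib 3.10.9 and scipy 1.17.1.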

Additional observations from a re-analysis of the deposited data

Results flagged for a closer look

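The median over the 36 long regions changed sign between groups in 2 places, and neither difference was tested. The median day change, day +2 less day -2, was -0.0132 in control cells and 0.0311 in shRNA8 cells on the log2 scale. The median line difference, shRNA8 less control, was -0.01701 at day -2 and 0.03969 at day +2. All 4 values are small beside the SD over regions of 0.10 to 0.13. They are the same 4 arrays read along lines and along days, so they are not separate observations.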

How the results depend on the processing

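The excess of the long regions over other regions in log2 ratio, 0.14 as a mean over arrays, moved to 0.043 with probes above background in all inputs, 0.082 with all probes pooled, 0.078 with the deposited log ratio, 0.058 with background-subtracted signals, 0.023 after removal of probe length, 0.20 with a join gap of 500 bp (25 regions) and -0.18 with at least 30 probes (10 regions). The excess of 0.55 in IP moved to 0.0056 with probes above background and to -0.080 after removal of probe length, and that of 0.54 in input to 0.24 and -0.054. Ends less centre, -0.030, moved to -0.25 against the middle 20%, 0.018 with the first and last 10%, 0.14 with probes above background, 0.041 after removal of probe length and -0.083 with medians over probes. The count of long regions past the size rule stayed at 0 under all 9 alternatives in all 5 comparisons. The share of all regions past it ran from 0 (the IP channel alone in 4 comparisons, and at least 10 usable probes) to 19.3% (a size of 0.3). No paired analysis was possible because each group has 1 array and no result comes from a test. Dim input limits the comparisons, since 54.2% of member probes were above background in all inputs.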

Other observations

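On chromosome X, outside the autosomal rule, 2 of 972 regions were past the same size limits, and they lie side by side. The region chrX:100625556-100651124 (86 probes) had median log2 ratios of -0.30, -0.24, -0.25 and -0.11, in the order control day -2, control day +2, shRNA8 day -2 and shRNA8 day +2. The region chrX:100652509-100680021 (113 probes) had -0.77, -0.71, -0.53 and -0.64, so that its ratios lay below those of its neighbour in every array. Of their probes 24.4% and 15.0% were 45 bp long, as in the dim autosomal members. Between the lines the first differed by -0.05 at day -2 and 0.12 at day +2, and the second by -0.10 and -0.23, all under the size rule.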
